A study of Mus musculus with 8 samples.

Results

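The primary (azurophil) granule genes described here are myeloperoxidase (Mpo), neutrophil elastase (Elane), proteinase 3 (Prtn3), cathepsin G (Ctsg), serine protease 57 (Prss57) and cathepsin C (Ctsc), 6 of the 12830 genes in the tables. They were taken by name and matched to mouse gene IDs through RefSeq; all 6 were measured in all 8 libraries and all 6 passed the filter on low counts. RNA was sequenced from the AML410 leukaemia, a p53-/- acute myeloid leukaemia of the mouse with a monosomal karyotype, in which a GFP-linked short hairpin RNA targets PU.1, the ETS transcription factor encoded by Spi1. Leukaemic C57BL/6 recipients were left untreated or received Dox (doxycycline) for 2, 4 or 6 days, which switches the hairpin off and lets PU.1 return step by step. Each of the 4 groups holds 2 libraries of GFP+ bone marrow cells. The p53 loss and the hairpin are shared by every group, and AML410 is a single leukaemia. Neither the hairpin's promoter nor the age of the mice is given in the labels. The sorting gate moved with the days on Dox: GFPhigh in untreated mice, GFPhigh-mid at day 2, GFPmid at day 4 and GFPlow at day 6, so gate and time cannot be told apart. The titles call the libraries of a group technical replicates while the series text speaks of duplicate mice, so p-values measure the spread between these libraries, which may be technical.

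Primary granules form first in neutrophil development, at the promyelocyte stage. They hold the haem enzyme myeloperoxidase, which makes hypochlorous acid from hydrogen peroxide and chloride, and a family of serine proteases (elastase, proteinase 3, cathepsin G and the less abundant Prss57) that are made as inactive precursors. Cathepsin C, a cysteine protease of the papain family also called dipeptidyl peptidase I, cuts the dipeptide off these precursors and so activates them; it is made in many tissues. Transcription of the genes for myeloperoxidase and the serine proteases normally peaks in promyelocytes and stops as granulocytes mature. PU.1, C/EBP, RUNX and MYB proteins are known to bind promoters among these genes.

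The 6 genes did not move together. After 6 days on Dox, Ctsg, Elane and Prtn3 were lower than in untreated cells, Ctsc and Prss57 were higher, and Mpo did not pass the test in either direction. Ctsg was 9.6-fold lower and Elane 2.87-fold lower, while Ctsc was 5.02-fold higher and Prss57 5.82-fold higher. Prtn3 passed the test upward at days 2 and 4 and downward at day 6. Tests are edgeR quasi-likelihood tests fitted over all 8 libraries with Benjamini-Hochberg adjustment over 12330 genes and a threshold of 0.05. Levels are counts as CPM, scaled by TMM, which corrects each library total for composition, and log2 fold changes are given with their standard error (SE).

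The libraries held 9262047 to 11213292 counts. Spi1 itself stood at 8.34 and 12.9 CPM in the untreated libraries, at 14.8 and 15.6 on day 2, at 94 and 103 on day 4, and at 217 and 229 on day 6. Its log2 fold change against untreated cells was 0.52 on day 2 (adjusted p = 0.103), 3.21 on day 4 and 4.39 on day 6 (adjusted p = 8.84e-10). The day 2 libraries differed from each other more than the libraries of any other group did, with a mean chi-square per gene of 150 against 3.04 to 8.36 elsewhere; B cell markers summed to 134 CPM in day 2 replicate 1 and to 24.7 CPM in replicate 2. The day 2 results for these genes are given with and without replicate 1 where they rest on it. All 9 neutrophil markers and all 9 monocyte and macrophage markers searched for were in the tables.

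Promoter windows from RefSeq (GRCm38.p6) are shown for the neighbouring genes Prtn3 and Elane, for Ctsg, which had the largest decrease of the 6 at day 6, and for Ctsc, which had the largest increase of the 6 at day 4. Of the 6 genes, 5 had a window. Each runs 5′ to 3′ on the gene's own strand over the 250 bases before the start site in the RefSeq table; the Ctsc window is printed to the base before the annotated gene, 189 bases. Capitals mark AGGAAGT, an ETS core of the kind PU.1 binds, read on either strand, and AACGG, a MYB core.
Prtn3, chr10:79879417-79879666, plus strand: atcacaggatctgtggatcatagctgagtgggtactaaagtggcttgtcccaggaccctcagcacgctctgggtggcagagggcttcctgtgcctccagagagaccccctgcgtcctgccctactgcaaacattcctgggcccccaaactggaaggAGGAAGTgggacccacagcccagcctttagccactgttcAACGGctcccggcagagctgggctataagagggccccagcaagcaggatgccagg
Elane, chr10:79886062-79886311, plus strand: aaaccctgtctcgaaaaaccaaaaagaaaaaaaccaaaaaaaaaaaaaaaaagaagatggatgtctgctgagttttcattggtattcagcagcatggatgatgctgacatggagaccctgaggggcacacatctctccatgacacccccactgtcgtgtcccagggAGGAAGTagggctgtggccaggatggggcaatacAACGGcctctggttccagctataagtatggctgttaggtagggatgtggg
Ctsg, chr14:56102575-56102824, minus strand: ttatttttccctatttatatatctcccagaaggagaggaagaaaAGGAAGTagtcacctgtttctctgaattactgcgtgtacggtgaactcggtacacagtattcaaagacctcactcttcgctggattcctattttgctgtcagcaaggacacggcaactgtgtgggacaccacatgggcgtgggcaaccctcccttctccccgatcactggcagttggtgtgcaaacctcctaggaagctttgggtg
Ctsc, chr7:88277835-88278023, plus strand: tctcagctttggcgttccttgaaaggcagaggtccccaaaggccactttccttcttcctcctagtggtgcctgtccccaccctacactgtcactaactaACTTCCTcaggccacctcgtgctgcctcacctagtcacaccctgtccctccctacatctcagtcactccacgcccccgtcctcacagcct
The letters AGGAAGT were present in all 5 windows: 223 bases before the start site in Mpo, 84 in Elane, 94 in Prtn3, 206 in Ctsg and, on the opposite strand, 151 in Ctsc, counted to the first base of the match. Among 32851 promoter windows of the same length, 7.69% held them on either strand. AACGG followed the ETS core in Elane, 27 bases further on, and in Prtn3, 32 bases further on, and was absent from the other 3 windows; 14.5% of all windows held it and 1.07% held both. A RUNX core, TGTGGT, was found in the Ctsg window alone, on the opposite strand 79 bases before the start site, against 14% of all windows. TTNCNNAA, a C/EBP core, was in none of the 5 windows and in 36.8% of all. The letters were chosen after the sequences had been read, so these shares describe the windows and test nothing. A match is not a binding site, and the lack of an exact match does not show that a site is missing.

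**Figure D1:**
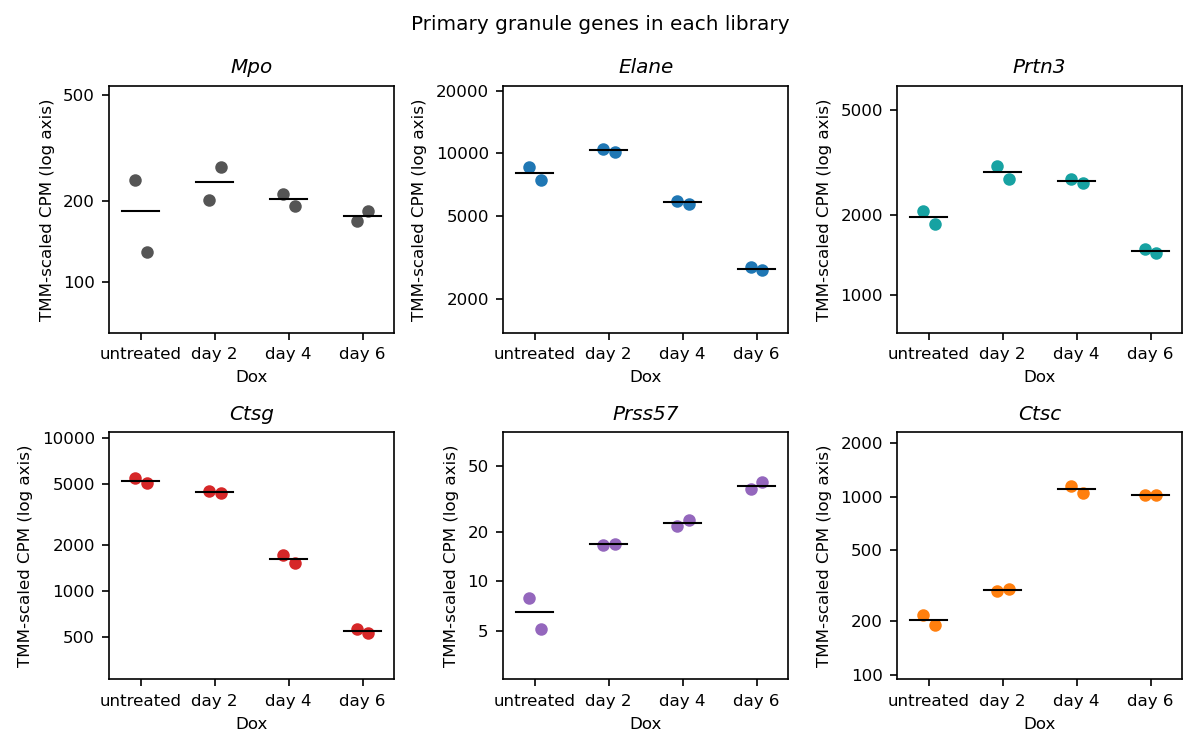
TMM-scaled CPM on a log axis of each of the 6 genes in untreated cells and after 2, 4 and 6 days on Dox. Points are single libraries and the line is the mean of 2. Ctsg fell to 562 and 527 CPM at day 6, Ctsc stood between 1022 and 1142 CPM at days 4 and 6, and the untreated Mpo libraries, at 239.9 and 129.5 CPM, lie farther apart than those of any Dox group.

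Of the serine proteases, cathepsin G changed most. Ctsg (gene ID 13035, chromosome 14, 56099885 to 56102574, mm10 coordinates) cuts proteins after aromatic residues. It had 5419 and 5038 CPM without Dox, 4455 and 4354 at day 2, 1720 and 1510 at day 4, and 562 and 527 at day 6. No group overlapped the next, and each later group lay below the one before. The day 2 difference was a log2 fold change of -0.25 (SE 0.10, adjusted p = 0.176) and did not pass, although DESeq2 called it (adjusted p = 0.0338). Ctsg then fell by 1.70 on the log2 scale at day 4 against untreated cells (SE 0.10, adjusted p = 1.31e-07) and fell by 3.26 at day 6 (SE 0.11, adjusted p = 9.74e-10). The fall continued between neighbouring times, with log2 fold changes of -1.45 for day 4 against day 2 (adjusted p = 7.19e-07) and -1.57 for day 6 against day 4 (adjusted p = 6.96e-06). By rank of count among all genes, Ctsg was 4 in both untreated libraries and 245 and 282 at day 6. In bulk samples, fewer cells that make a transcript and less of it per cell cannot be told apart, and this holds for every gene below.

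Neutrophil elastase was the most abundant of the 6 genes in every group, and it declined less than Ctsg. Elane (gene ID 50701, chromosome 10, 79886312 to 79888216) degrades elastin and bacterial proteins. It had 8562 and 7471 CPM without Dox, 10512 and 10135 at day 2, 5904 and 5728 at day 4, and 2829 and 2751 at day 6. Both day 2 libraries lay above both untreated ones, both day 4 libraries lay below them, and the day 6 libraries were lowest. The day 2 difference was a log2 fold change of 0.36 (SE 0.10, adjusted p = 0.0573). It missed the threshold here and in 11 of 14 alternative settings, among them total counts as the scaling (0.18, adjusted p = 0.47), a fit of the 2 groups alone (adjusted p = 0.211) and each day 2 library left out (adjusted p = 0.182 and 0.163). It passed in the other 3, with RLE size factors (adjusted p = 0.0493), with DESeq2 (adjusted p = 7.78e-05) and without untreated replicate 1 (0.47, adjusted p = 0.00666). Elane was lower at day 4 than in untreated cells (log2 fold change -0.46, SE 0.10, adjusted p = 0.00282) and lower again at day 6 (-1.52, SE 0.10, adjusted p = 1.75e-07). It fell by 0.83 at day 4 against day 2 (adjusted p = 6.31e-05) and by 1.06 at day 6 against day 4 (adjusted p = 4.47e-05), both on the log2 scale. Elane ranked 1 and 2 by count in the untreated libraries, where it took 0.981% and 0.881% of all counts, and 26 and 29 at day 6.

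Proteinase 3 was higher at days 2 and 4 and lower at day 6. Prtn3 (gene ID 19152, chromosome 10, 79879667 to 79883174) has a substrate range close to that of elastase and is the target of autoantibodies in human vasculitis. It had 2077 and 1859 CPM without Dox, 3083 and 2742 at day 2, 2746 and 2649 at day 4, and 1495 and 1444 at day 6. The day 2 and day 4 libraries overlapped each other and lay above the untreated libraries, and the day 6 libraries lay below them. Prtn3 rose at day 2 against untreated cells (log2 fold change 0.57, SE 0.10, adjusted p = 0.00732), and without day 2 replicate 1 the value was 0.48 (adjusted p = 0.0324). It was also higher at day 4 than in untreated cells (0.45, SE 0.10, adjusted p = 0.0026) and lower at day 6 (-0.42, SE 0.10, adjusted p = 0.00281). Day 4 against day 2 gave -0.11 (SE 0.10, adjusted p = 0.41), and Prtn3 fell by 0.88 at day 6 against day 4 (adjusted p = 0.00011). With total counts in place of TMM, the day 2 and day 4 values were 0.38 (adjusted p = 0.109) and 0.21 (adjusted p = 0.24), while that scaling put the median of all genes at -0.17 and -0.27. In GENCODE, 159 exon bases of Prtn3 (9.18%) are shared with Plppr3 on the opposite strand. The strand setting of the counting is not given in the sources used here, and Plppr3 averaged 44.7 CPM at day 6 and 82.5 CPM in untreated cells.

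Prss57 was the rarest of the 6 and the only serine protease among them that passed the test upward at day 6. It encodes a neutrophil serine protease that cuts after arginine (gene ID 73106, chromosome 10, 79781474 to 79794684). It had 7.92 and 5.11 CPM without Dox, 16.6 and 16.9 at day 2, 21.7 and 23.5 at day 4, and 36.1 and 39.8 at day 6. These levels come from 61 to 368 counts per library, so counting error is larger here than for the other genes. The groups did not overlap and each later group was higher. Prss57 rose by day 2 (log2 fold change 1.36, SE 0.18, adjusted p = 0.00163; 1.37 without day 2 replicate 1) and was higher still at day 4 (1.79, SE 0.17, adjusted p = 5.69e-06) and day 6 (2.54, SE 0.17, adjusted p = 1.29e-07), each against untreated cells. Between neighbouring times it rose at day 6 against day 4 (0.75, SE 0.14, adjusted p = 0.00275). The value for day 4 against day 2, 0.43 (SE 0.15, adjusted p = 0.0461), did not stay past the threshold when any 1 of the 4 libraries of days 2 and 4 was left out, nor with DESeq2 (adjusted p = 0.128). In GENCODE, 1157 of the 2843 exon bases of Prss57 (40.7%) lie under exons of Fstl3 on the opposite strand. Fstl3 averaged 1.05 CPM at day 6 and 1.23 CPM in untreated cells. In RefSeq the span of Prss57 also overlaps that of Palm, a more abundant gene that rose as well. In GENCODE, however, Fstl3 was the only gene found to share exon bases with Prss57, and Palm shared none. Palm averaged 125 CPM at day 6 and 45 CPM in untreated cells (log2 fold change 1.47, adjusted p = 1.16e-06). The sources used here do not say whether the counting used strand, and how these overlaps affect the Prss57 count was not tested.

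Cathepsin C, the activator of the serine proteases, changed in the direction opposite to that of Ctsg and Elane. Ctsc (gene ID 13032, chromosome 7, 88278024 to 88315861) had 218 and 190 CPM without Dox, 294 and 303 at day 2, 1142 and 1052 at day 4, and 1022 and 1025 at day 6. The step between days 2 and 4 was the largest one, and the day 4 and day 6 groups lay close together. Ctsc rose by day 2 against untreated cells (log2 fold change 0.55, SE 0.09, adjusted p = 0.00476; 0.57 without day 2 replicate 1), though not with total counts as the scaling (0.37, adjusted p = 0.107). It was 5.38-fold higher at day 4 than in untreated cells (log2 fold change 2.43, SE 0.09, adjusted p = 5.1e-09) and 5.02-fold higher at day 6 (2.33, SE 0.09, adjusted p = 2.53e-09). Day 4 against day 2 gave 1.88 (adjusted p = 4.7e-08) and day 6 against day 4 gave -0.10 (SE 0.09, adjusted p = 0.414, 95% interval -0.29 to 0.09).

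Myeloperoxidase passed no comparison, and its untreated libraries disagreed. Mpo (gene ID 17523, chromosome 11, 87793784 to 87804412) had 239.9 and 129.5 CPM without Dox, 203.4 and 268.8 at day 2, 214.2 and 193.4 at day 4, and 169.1 and 185.3 at day 6. All 3 Dox groups overlapped the untreated range, and the widest spread for this gene was between the untreated libraries, 185 ± 78 CPM (SD, n = 2). The log2 fold change was 0.36 at day 2 (SE 0.22, adjusted p = 0.378), 0.14 at day 4 (SE 0.22, adjusted p = 0.619) and -0.06 at day 6 (SE 0.22, adjusted p = 0.83). The 95% interval at day 6, -0.55 to 0.43, does not reach the changes of Ctsg, Elane, Prss57 or Ctsc, but it includes the value of Prtn3. The direction of the day 6 value depends on the untreated library used: without untreated replicate 1 it was 0.46 (adjusted p = 0.0221), and without untreated replicate 2 it was -0.44 (adjusted p = 0.0237). Without untreated replicate 1 Mpo also passed upward at day 2 (0.87, adjusted p = 0.00756) and day 4 (0.66, adjusted p = 0.00491). In GENCODE, 512 of its 3424 exon bases (15%) are shared with Gm11505 on the opposite strand.

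**Figure D2:**
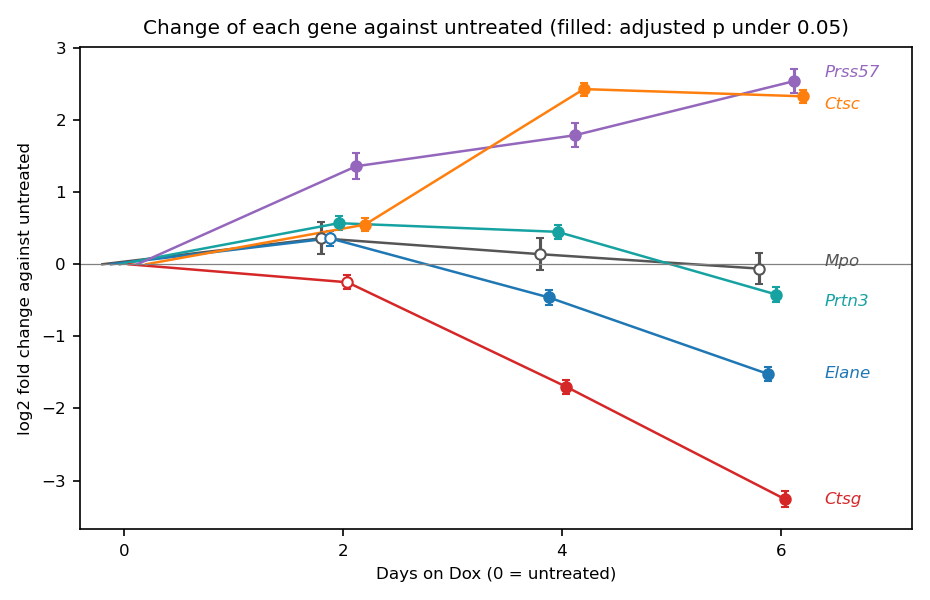
Log2 fold change of the 6 genes against untreated cells by days on Dox; bars are SE and filled points passed an adjusted p of 0.05. At day 6 the values run from -3.26 for Ctsg to 2.54 for Prss57, with Mpo at -0.06.

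Counted over the 6 genes, 3 passed at day 2 against untreated cells, all upward (Prtn3, Prss57 and Ctsc, also without day 2 replicate 1), where 6.13% of all genes tested passed in either direction and 4.18% upward. With total counts as the scaling only 1 of the 6, Prss57, passed at day 2, and the genes called upward numbered 170 in place of 516. At day 4 against untreated cells 3 passed upward (Prtn3, Prss57 and Ctsc) and 2 downward (Elane and Ctsg), against 48.0% of all genes (26.1% upward and 22.0% downward). At day 6 against untreated cells 2 passed upward and 3 downward, against 63.6% of all genes (32.0% upward and 31.6% downward). For day 4 against day 2, 2 passed upward and 2 downward, against 37.6% of all genes (21.7% upward and 15.9% downward). For day 6 against day 4, 1 passed upward (Prss57) and 3 downward (Elane, Prtn3 and Ctsg), against 29.9% of all genes (15.9% upward and 14.0% downward). A test of any difference among the 4 groups called 5 of the 6, all but Mpo (adjusted p = 0.328), where it called 65.1% of all genes. From day 4 on, so many genes were called that the number of these 6 among them says little; the values describe how their directions differ. Their median log2 fold change was 0.46 at day 2, 0.30 at day 4 and -0.24 at day 6, beside 0.00, -0.02 and -0.04 over all genes.

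Ratios of 2 genes within a library do not depend on how libraries are scaled, so they were used to compare the genes with one another. Log2 ratios of counts plus 0.5 were compared over the 4 groups with an exact permutation test of the F statistic, whose smallest possible p with 8 libraries is 0.0095, adjusted over the 15 pairs. Of these pairs, 12 passed, and 10 of them reached the smallest p (adjusted p = 0.0143). In 10 pairs the ratio was ordered by day with no overlap between groups. No such share was computed for pairs of other genes, and 65.1% of all genes differed among the 4 groups. These counts therefore do not set the members apart from other genes, and the ratios describe how the members differ from one another.

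Elane and Prtn3 lie 3.14 kb apart on chromosome 10 and their products are close relatives, and their ratio changed with the days on Dox. The log2 ratio of Elane over Prtn3 was 2.04 and 2.01 without Dox, 1.77 and 1.89 at day 2, 1.10 and 1.11 at day 4, and 0.92 and 0.93 at day 6. Elane relative to Prtn3 was thus 2.14-fold lower at day 6 than in untreated cells, with an exact permutation p at the smallest value. Against Ctsg the elastase ratio moved the other way: log2 Elane over Ctsg averaged 0.61 without Dox, 1.23 at day 2, 1.85 at day 4 and 2.36 at day 6, a 3.35-fold gain of Elane on Ctsg at day 6 against untreated cells. The log2 ratio of Prtn3 over Ctsg averaged -1.41 without Dox, -0.60 at day 2, 0.74 at day 4 and 1.43 at day 6, so the order of these 2 genes by count turned between days 2 and 4. Among the 3 abundant serine proteases the order of decline at day 6 was therefore Ctsg, Elane, Prtn3, and each pair differed by the ratio test.

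The abundant serine proteases also lost ground against their activator. The log2 ratio of Ctsg over Ctsc was 4.64 and 4.73 without Dox, 3.92 and 3.85 at day 2, 0.59 and 0.52 at day 4, and -0.86 and -0.96 at day 6. Ctsg counts exceeded Ctsc counts in every library except the day 6 pair, and the ratio was 48.2-fold lower at day 6 than in untreated cells. Elane over Ctsc was 14.4-fold lower and Prtn3 over Ctsc 6.72-fold lower at day 6 than in untreated cells; the Prtn3 ratio was 3.27 in untreated cells and 3.28 at day 2 on the log2 scale before it declined. Prss57 and Ctsc both rose but on different schedules: log2 Prss57 over Ctsc averaged -4.99 without Dox, -4.15 at day 2, -5.60 at day 4 and -4.75 at day 6 (exact permutation test, adjusted p = 0.026), with day 2 highest and day 4 lowest; without day 4 replicate 1 the adjusted p was 0.0595. The 3 pairs that did not pass all involve Mpo, with Elane (adjusted p = 0.0549), Prtn3 (adjusted p = 0.362) and Ctsc (adjusted p = 0.0612, exact permutation tests). With each untreated library left out in turn, the pairs with Elane and Ctsc passed.

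**Figure D3:**
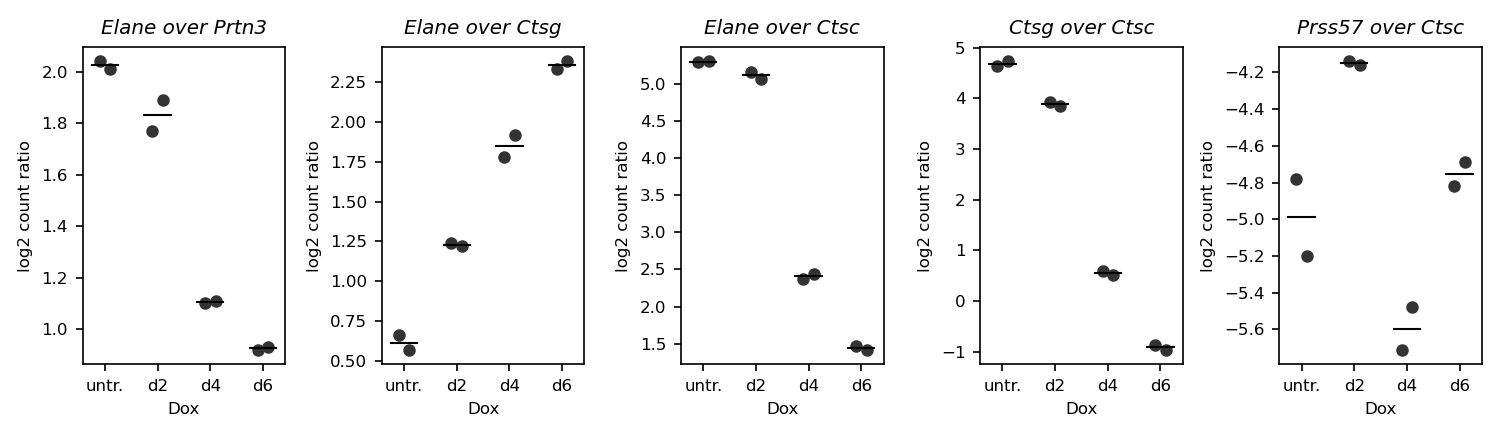
Within-library log2 count ratios of 5 pairs by group (untreated, day 2, day 4, day 6); points are libraries and lines are group means of 2. Elane over Prtn3 lies between 2.04 and 0.92, and Ctsg over Ctsc changes sign at day 6.

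Together the 6 genes made up 1.89% and 1.73% of all counts without Dox, 1.74% and 1.99% at day 2, 1.15% and 1.08% at day 4, and 0.534% and 0.507% at day 6. The exact 95% binomial interval of the first of these shares is 1.88% to 1.9%, and it covers counting error only. Within that pool Ctsg held 9.19% and 8.83% of the counts at day 6, against 32.8% and 34.3% in untreated cells. Prtn3 held 24.5% and 24.2% at day 6, against 12.6% and 12.7% in untreated cells. Ctsc held 16.7% and 17.2% at day 6, against 1.32% and 1.29% in untreated cells. Elane stayed the largest component in each library, between 46.1% and 56.9%. Per kilobase of the deposited gene length, the order of mean levels in untreated cells was Elane (8714 CPM per kilobase), Ctsg (5218), Prtn3 (2025), Ctsc (82.6), Mpo (72.5) and Prss57 (2.42). Of these neighbours Ctsc and Mpo did not separate, since the Mpo libraries at 94.2 and 50.9 CPM per kilobase enclosed those of Ctsc at 88.2 and 76.9. At day 6 the order was Elane (3032), Prtn3 (1512), Ctsg (544), Ctsc (414), Mpo (69.6) and Prss57 (14.1), with no overlap between neighbours.

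**Figure D4:**
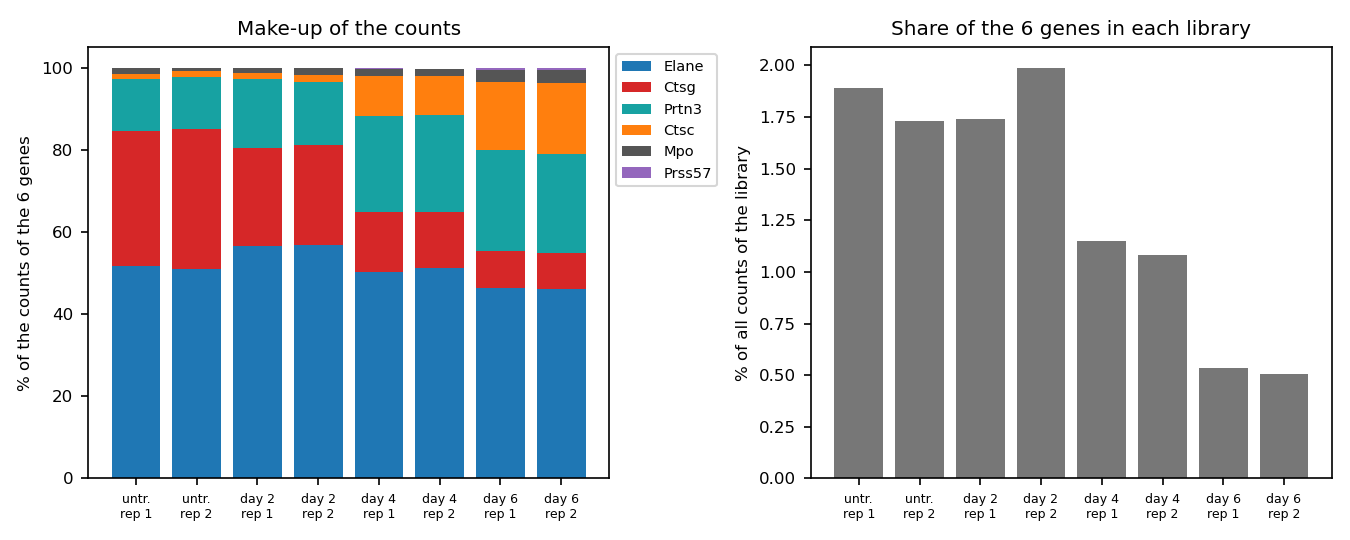
Left, make-up of the summed counts of the 6 genes in each library (untr., untreated; rep, replicate); right, their share of all counts. The summed share is about 0.5% at day 6, and within it Ctsg shrinks and Ctsc and Prtn3 expand.

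Other contents of the primary granule mostly rose. Of 19 such genes tested, 8 rose at day 2 (6 without day 2 replicate 1), 15 rose at day 4, and 14 rose and 2 fell at day 6, all against untreated cells. Over all genes 4.18% rose at day 2, 26.1% rose at day 4, and 32.0% rose and 31.6% fell at day 6. The median log2 fold change of the list at day 6 was 1.35, beside -0.04 over all genes. Lyz1 and Lyz2, lysozyme genes so alike that reads may be shared between them, had log2 fold changes of 4.45 (adjusted p = 1.49e-10) and 4.44 (adjusted p = 4.71e-10) at day 6. Psap, the precursor of the saposins that help lipid hydrolases, averaged 7925 CPM at day 6 and 1342 CPM in untreated cells (log2 fold change 2.56). The lowest value was that of Gaa, acid alpha-glucosidase, at -1.06 (adjusted p = 2.72e-04). Many of these genes belong to lysosomes of all cells and to macrophages. Ms4a3, a membrane protein of granulocyte and monocyte progenitors, averaged 590 ± 40.7 CPM at day 2 and 388 ± 10.7 CPM in untreated cells (SD, n = 2 each; log2 fold change 0.60, adjusted p = 0.00307). It was also higher at day 6 (log2 fold change 0.35, adjusted p = 0.00473), with -0.09 when only total counts were used for scaling. With that scaling the list gave 1 up at day 2, and 11 up and 4 down at day 6.

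Most other cathepsins were higher as well. Of 9 tested, 8 rose and 1 fell at day 4, and 7 rose and 1 fell at day 6 against untreated cells, where 26.1% of all genes rose at day 4 and 32.0% at day 6. Ctss, a cysteine protease of antigen-presenting cells, averaged 817 CPM at day 6 and 32.3 CPM in untreated cells (log2 fold change 4.66, adjusted p = 1.93e-09). The 1 that fell was Ctso (-0.55, adjusted p = 0.00481). The median of the list at day 6 was 1.56, and with total counts as the scaling 7 rose and 2 fell.

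Of 18 genes tested that package or restrain the proteases, 6 rose and 6 fell at day 6 against untreated cells, shares close to the 32.0% and 31.6% of all genes, and the median of -0.04 equalled that of all genes. The list as a whole therefore showed nothing beyond the background, and its members are given as single values. Srgn, the core protein of serglycin, the proteoglycan on which granule proteases are stored, averaged 471 CPM at day 6 and 2480 CPM in untreated cells (log2 fold change -2.40, adjusted p = 8.54e-09). Cst7, cystatin F, which inhibits cathepsin C and related enzymes, averaged 125 CPM at day 6 and 394 CPM in untreated cells (-1.66, adjusted p = 1.83e-08). Its relative Cst3, cystatin C, averaged 635 CPM at day 6 and 116 CPM in untreated cells (2.45, adjusted p = 1.25e-09). Slpi, which inhibits elastase and cathepsin G, fell to 3807 CPM at day 6, against 7021 CPM in untreated cells (-0.88, adjusted p = 2.48e-05). Serpinb1a, an inhibitor of the same proteases inside the cell, was lower by a smaller amount (-0.55, adjusted p = 1.06e-04). Serpina3g had the highest log2 fold change, 3.74, at a low level (5.79 CPM at day 6 and 0.422 CPM in untreated cells). G6pc3 and Jagn1 fell by 1.53 and 0.72 on the log2 scale at day 6. Others of the list went the other way, since Lyst, Vps13b, Ap3b1 and Vps45 passed upward at day 6. Hax1 and Lamtor2 passed in neither direction. With total counts as the scaling, 3 rose and 11 fell.

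Myeloperoxidase needs haem and endoplasmic reticulum chaperones. Of 13 genes of haem synthesis and chaperones tested, 3 rose and 5 fell at day 6 against untreated cells, with a median of -0.06, where 32.0% of all genes rose and 31.6% fell with a median of -0.04. The extremes were Ppox (1.21, adjusted p = 1.51e-05) and Uros (-1.05, adjusted p = 2.67e-04), both enzymes of haem synthesis. Fech, which inserts the iron, fell by 0.94 (adjusted p = 5.98e-06) and Calr, a chaperone of the myeloperoxidase precursor, by 0.44 (adjusted p = 0.00132), both on the log2 scale. With total counts as the scaling, 1 rose and 10 fell.

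Among 12 regulators of granule genes, 5 rose and 6 fell at day 6 against untreated cells, where 63.6% of all genes were called. The 5 were Spi1, which the design restores, Cebpe, and with log2 fold changes of 0.72, 0.50 and 0.30 Cebpd, Cebpb and Cbfb. The 6 were Myb, Irf8, Cebpa, Gfi1, Runx1 (-0.69) and Cux1 (-0.52). Spi1 had the highest value, and the lowest was that of Myb, a progenitor factor that activates Elane and Mpo, with 126 CPM at day 6 and 546 CPM in untreated cells (log2 fold change -2.12, adjusted p = 6.33e-09). Cebpa, needed for entry into the granulocyte lineage, was already lower at day 2 (-0.43, adjusted p = 0.0127; 0.0876 without day 2 replicate 2) and was at -1.05 at day 6 (adjusted p = 7.45e-07). Gfi1, a repressor that neutrophil development requires, was at -0.95 at day 6 (adjusted p = 4.56e-05). Irf8, a monocyte factor, had -0.18 at day 4 (adjusted p = 0.225) and -1.24 at day 6 (adjusted p = 3.56e-06). Cebpe, the factor of secondary granule genes, averaged 139 CPM at day 4 and 189 CPM in untreated cells (-0.45, adjusted p = 0.0341), a call lost with DESeq2 (adjusted p = 0.12) and without untreated replicate 1 (-0.31, adjusted p = 0.198) or day 4 replicate 1 (-0.27, adjusted p = 0.254). At day 6 it averaged 298 CPM (0.66 against untreated cells, adjusted p = 0.00307), a call lost with total counts as the scaling (0.22, adjusted p = 0.165). With that scaling 1 rose and 7 fell.

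Secondary and tertiary granule genes, which follow primary granule genes in normal maturation, rose at days 4 and 6. Of 14 tested, 4 rose at day 2 (3 without day 2 replicate 1), 12 rose at day 4 and 12 rose at day 6 against untreated cells, and Orm1 fell at both later times. The shares of all genes that rose were 4.18% (day 2), 26.1% (day 4) and 32.0% (day 6). The median log2 fold change at day 6 was 3.66. Chil3, a chitinase-like protein, had 7.59 (adjusted p = 2.42e-09) and Ltf, lactoferrin, had 7.06 (adjusted p = 9.07e-08).

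**Figure D5:**
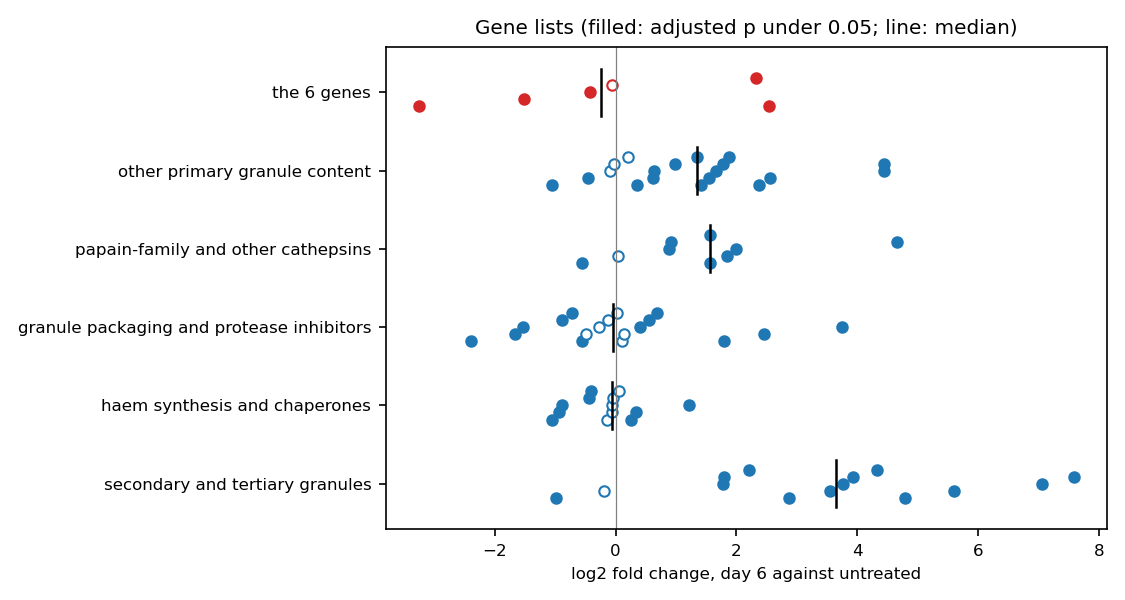
Log2 fold change at day 6 against untreated cells of the 6 genes and of 5 gene lists; each point is a gene, filled where the adjusted p was under 0.05, and the line is the median. The 6 genes span -3.26 to 2.54 around a median of -0.24, whereas secondary and tertiary granule genes have a median of 3.66.

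Markers of mature cells moved with these changes. The 9 neutrophil markers summed to 1895 and 1261 CPM without Dox, 2882 and 1962 at day 2, 5055 and 7465 at day 4, and 28982 and 35993 at day 6, and all 9 passed upward at day 6 against untreated cells. The 9 monocyte and macrophage markers summed to 4959 to 5467 CPM without Dox, 6762 to 7493 at day 2, 11295 to 11903 at day 4 and 9912 to 10244 at day 6. Most of this sum was Ly6c2, with means of 4771 CPM in untreated cells and 6592 CPM at day 6. All 9 of these markers also passed upward at day 6 against untreated cells. Their median log2 fold change was 4.78, beside 4.53 for the neutrophil markers. Of 13 mast cell and basophil markers, 7 were in the tables, with sums of 166.8 and 188.3 CPM at day 6 and of 430.8 and 396.2 CPM in untreated cells; Tpsb2, Tpsab1, Mcpt4 and Cma1, which define mast cells, were not among them. Erythroid markers (6 of 10 in the tables) summed to 40.8 and 64.5 CPM at day 6 and to 14.5 and 6.62 CPM in untreated cells, and 5 of the 6 passed upward (median log2 fold change 2.26). Eosinophil markers (7 of 9) summed to 33.8 and 32.9 CPM at day 6 and to 13.2 and 18 CPM in untreated cells, and 5 of the 7 passed upward (median 2.13). Epx and Prg2 did not pass (adjusted p = 0.434 and 0.125). Some markers that passed were nearly silent in untreated cells, such as Prg3 (0.0845 CPM), Ear2 (0.339), Msr1 (0.0851) and Fpr1 (0.294). The tables have a CPM floor, so such genes tend to be present only where other groups hold more. This favours upward calls, and these counts are descriptive. Among all genes tested, 32.0% passed upward at day 6 against untreated cells. Over all 8 libraries the other lists summed to between these CPM values: B cell 24.7 to 134 (10 of 10), T and NK cell 94.3 to 216 (3 of 11) and megakaryocyte 36.2 to 77.6 (4 of 8). The T and NK cell sum was mostly Nkg7, at 121 CPM in untreated cells beside 1.36 CPM for Lck. Cd3d, Cd3e and Cd3g were not in the tables, where the third highest CPM of every gene is at least 0.501. Their counts are therefore not known here. Most of the mast cell and basophil sum was Hdc and Kit, at 223 and 129 CPM in untreated cells. These markers did not move together. At day 6 against untreated cells 3 of the 7 passed downward (Mcpt8, Kit and Hdc). In the same comparison 1 passed upward, Prss34 (log2 fold change 1.96, adjusted p = 3.97e-04), and 3 did not pass. The part of any of these cell types in the changes of the granule genes was not tested.

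Position on the chromosome was compared through tested neighbours within 100 kb. Prss57, Prtn3 and Elane lie on the same stretch of chromosome 10, with 85 kb between Prss57 and Prtn3. Around these 3 genes, 19 other genes were tested, of which 3 rose and 9 fell at day 6 against untreated cells (median log2 fold change -0.21), while over all genes 32.0% rose and 31.6% fell. Plppr3, the gene next to Prtn3, fell by 0.88 on the log2 scale at day 6 (adjusted p = 9.96e-06). Palm, whose span overlaps that of Prss57, rose by 1.47 (adjusted p = 1.16e-06). Near Ctsg 2 genes were tested. The basophil protease gene Mcpt8, 14386 bases away, averaged 6.35 CPM at day 6 and 55.6 CPM in untreated cells (log2 fold change -3.13, adjusted p = 1.25e-07). The other, Gm5801, did not pass (0.22, adjusted p = 0.0598). Of 5 genes tested near Mpo, 1 rose and 0 fell at day 6 against untreated cells. Ctsc had 0 tested neighbours in its window.

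The genes whose pattern was most like that of each member were found from the root mean square difference of log2 CPM, centred per gene, over the 8 libraries, among 9185 candidates; this is a description. Nearest to Elane were Nt5dc2 (0.07), Cst7 (0.10) and Cad (0.14), and nearest to Ctsg were Capn3 (0.12), Csgalnact1 (0.12) and Chchd10 (0.15). Ctsc was closest to Rbm47 (0.07), Cst3 (0.07) and Tubb2a (0.13), and Prtn3 to N6amt1 (0.14), Naa20 (0.15) and Selenom (0.15). Prss57 was closest to Tmed5 (0.22), Chit1 (0.27) and Tes (0.28), and Mpo to Mrps11 (0.17), Sergef (0.17) and Lclat1 (0.18). None of the 6 was among the 3 nearest to another of them. The closest 2 of the 6 to each other were Mpo and Prtn3, at 0.35. Many other genes lay nearer to each, since Prtn3 ranked 3499 by nearness to Mpo and Mpo 1846 by nearness to Prtn3. Prss57 and Ctsc, at 0.53, ranked higher for each other, with Ctsc at 453 for Prss57 and Prss57 at 438 for Ctsc. Elane was at 0.47 from Prtn3 and at 0.66 from Ctsg, and Ctsg and Ctsc were farthest apart at 2.31.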

How the data were processed

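Per the file headers, each library has a deposited table of whole-number counts and a gene length (an other, non-count column) per Entrez gene ID. Tools in the submitters' processing notes are featureCounts, CASAVA 1.8.2, limma 3.22.0 and edgeR 3.8.2, with the build mm10; the aligner and strand setting are not stated there. The third highest CPM of each of the 12830 genes is at least 0.501, so the tables as deposited hold few silent genes. RefSeq matched 12555 IDs; the other 275 hold 2.24% of counts.

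All 8 libraries entered 1 edgeR 4.0.16 quasi-likelihood fit (R 4.3.3) of group means with TMM scaling and filterByExpr, which removed 500 genes with 0.0267% of counts. Residual degrees of freedom were 4 and prior ones 7.08, at a biological coefficient of variation of 8.34%. Code was tested on simulated data. CPM are TMM-scaled. Pairs of genes were compared by ratio with an exact permutation test over 105 arrangements of libraries (two-sided by construction of F).

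Named were the 6 genes, the extreme called genes of each list at day 6, others where a level was needed beside a member (chosen after values were seen), neighbours within 100 kb and 3 nearest patterns. The members and lists were chosen with earlier results of these data known. Alternatives were RLE and total-count scaling, no filter, DESeq2 1.42.0, 2-group fits, a replicate block, another ratio pseudocount and leaving out each library.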

Additional observations from a re-analysis of the deposited data

How the results depend on the processing

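Over 420 recomputed comparisons of the 6 genes, 391 kept direction and side of the threshold, 14 lost a call, 9 gained one and 6 changed sign, all 6 of them for Mpo. The cause of the changes below was not tested. The number of all genes called at day 2 against untreated cells, 756, was 232 in a fit of those 2 groups and 325 to 1325 with 1 library left out (1325 without untreated replicate 1, 325 without replicate 2); at day 6 against day 4, 3689 became 1726 to 4193 (day 6 replicate 2 omitted, 1726; day 4 replicate 1 omitted, 1731; day 6 replicate 1 omitted, 2132). At day 2 against untreated cells, Elane was 0.37 with RLE and with DESeq2 and 0.27 to 0.47 with 1 library left out (log2 fold changes throughout), Prtn3 was 0.38 with total counts and 0.56 in the 2-group fit, Ctsc was 0.37 with total counts and Ctsg was -0.24 with DESeq2. Leaving out 1 library gave Mpo -0.02 to 0.87 at day 2, -0.23 to 0.66 at day 4 and -0.44 to 0.46 at day 6 against untreated cells, and -0.41 to 0.00 for day 4 against day 2; without day 6 replicate 1 its day 6 value was 0.00. With total counts Mpo was -0.10 at day 4 and -0.49 at day 6, and Prtn3 0.21 at day 4; Mpo at day 6 against day 4 was -0.21 in the 2-group fit. Prss57 at day 4 against day 2 was 0.42 with RLE, 0.36 with total counts, 0.42 with DESeq2 and 0.37 to 0.49 with 1 library left out. Total counts moved the median of all genes to -0.17, -0.27 and -0.47 at days 2, 4 and 6 against untreated cells and to -0.20 at day 6 against day 4. Its calls were 170 up and 658 down at day 2 (516 and 240 with TMM), 1816 and 4519 at day 4 (3217 and 2707), 2078 and 6647 at day 6 (3942 and 3897), and 881 and 2646 for day 6 against day 4 (1961 and 1728). Of 1890 recomputed values of other named genes, all from comparisons in which the gene had been called, 1740 kept their call, 149 lost it and 1 changed sign, Ms4a3 at day 6 (-0.09, total counts); values that had not been called were not recomputed. The labels do not say whether same-numbered libraries are paired, and the correlations of their deviations lay between -0.13 and 0.21. With the replicate block, Prss57 at day 4 against day 2 was 0.43 (adjusted p = 0.0593), the only call of the 6 genes that the block changed. With it 7864 genes differed among the 4 groups, against 8025. Counting depth limits Prss57 most. The ratio tests passed for 12 pairs with a pseudocount of 5 and 11 to 14 pairs with 1 library left out.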
